A study of Mus musculus with 12 samples.

Results

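The genes described here are 10 markers of radial glia and members of the Notch pathway, named as a list and read by Ensembl gene identifier from the count table of each library. They are the receptors Notch1 and Notch2, the transcriptional repressors Hes1 and Hes5, the transcription factors Pax6, Sox2 and Sox9, and Vim, Fabp7 and Slc1a3, which mark the cell body and fibre of radial glia. All 10 were among the 51912 genes listed. Of these, 7 passed the filter on low counts and were tested, Hes1 and Hes5 fell below it, and Sox2 was at 0 in every library. RNA was measured in the cortex of mice at postnatal day 0 in 12 libraries. In the 4 libraries labelled H3.3 Neurod6 dKO, both genes of histone H3.3 (H3f3a and H3f3b) are, by label, deleted with Neurod6-Cre. In the 4 labelled H3.3 Emx1 dKO the same pair is, by label, deleted with Emx1-Cre, and 4 libraries were labelled control. No source used here gives the alleles and Cre of the control animals, or says whether animals were pooled or whether libraries came from separate animals.

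Radial glia are the stem cells of the developing cortex. They divide at the ventricular surface, send a fibre to the pial surface along which new neurons migrate, and turn to making astrocytes around birth. Notch receptors on these cells are cleaved when a neighbouring cell presents a Delta or Jagged ligand, and the released intracellular part joins the DNA-binding protein RBPJ and Mastermind coactivators to switch on Hes genes, which hold back neuronal differentiation. Emx1-Cre is active in cortical radial glia, whereas Neurod6-Cre is active in their postmitotic neuronal progeny. In RNA from whole cortex, more cells of a type and more RNA per cell cannot be told apart. Vim, Fabp7, Slc1a3, Sox9 and the Notch genes are also expressed in young astrocytes, and Vim and the Notch receptors in blood vessels and meninges.

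Hes5 and Notch2 promoter sequences are shown because Hes5 is the classical target through which Notch activity is read and Notch2 is the gene of the list that passed in both knockouts under every setting tried. They are the 250 bases before the RefSeq start (GRCm38.p6), written 5′ to 3′ on the gene's strand. Hes5 lies on the plus strand at chr4:154960673-154960922 and Notch2 on the plus strand at chr3:98013288-98013537. Capitals mark the RBPJ core motif, TGGGAA, on either strand.
Hes5: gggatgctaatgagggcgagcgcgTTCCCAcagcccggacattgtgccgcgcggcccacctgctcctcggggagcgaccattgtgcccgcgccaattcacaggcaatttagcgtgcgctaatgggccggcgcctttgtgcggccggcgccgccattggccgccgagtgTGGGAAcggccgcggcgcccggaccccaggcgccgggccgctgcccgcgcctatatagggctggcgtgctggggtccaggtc
Notch2: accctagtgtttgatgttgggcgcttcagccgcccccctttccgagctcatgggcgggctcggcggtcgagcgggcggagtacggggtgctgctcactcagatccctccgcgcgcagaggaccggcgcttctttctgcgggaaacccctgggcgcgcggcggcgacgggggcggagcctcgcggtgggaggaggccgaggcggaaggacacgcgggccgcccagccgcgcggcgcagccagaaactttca
The Hes5 window held the core at 226 and 82 bases before the start, once on each strand, and the Notch2 window held none. Of the 8 genes with a promoter entry (Sox9 and Hes1 had none), Fabp7 was the other with a match, at 249 bases before its start. The core was present in 21.6% of 32851 windows of the same length. The N box CACNAG, to which Hes proteins bind, was searched on both strands and lay in 6 of the 9 entries of these genes, against 36.7% of all windows. The Hes5 window held no N box, so the motifs did not overlap there.

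Total counts in genes ran from 722080 to 3502017 in Neurod6 dKO, from 1452515 to 2503581 in Emx1 dKO and from 1974975 to 3083599 in control. Levels are given as CPM, the counts of a gene scaled to a common library size with TMM factors. At these depths a count of 3, taken as the floor, corresponds to 0.857 to 4.15 CPM before that scaling, and floors cover counting error only. H3f3a, a targeted gene, was at 22.1 to 37.8 CPM in Neurod6 dKO, at 22.9 to 30.0 CPM in Emx1 dKO, and in those labelled control 1 to 4 at 17.7, 117, 16.4 and 121 CPM. H3f3a in control 1 and control 3 was thus lower than in every knockout library, against their label. H3f3b, the other targeted gene, was at 111 to 146 CPM in Neurod6 dKO, at 167 to 180 CPM in Emx1 dKO and, in control 1 to 4, at 121, 76.7, 143 and 84.2 CPM. It was higher in Emx1 dKO than in every control, against the label (log2 fold change 0.69, edgeR adjusted p = 0.000707), and did not pass in Neurod6 dKO (0.16, adjusted p = 0.583). Control 1 and control 3, low in H3f3a, were the higher controls in H3f3b. Whole-gene counts cannot show how much of the deleted stretch was lost. Groups are therefore named by their labels, every direction is one between labels, and counts are also given without those control libraries. All 9 listed markers of cortical excitatory neurons were detected in the libraries.

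The position of a gene inside other genes decided what could be measured. Of 154 protein-coding genes that lie within an intron of 1 other gene on the same strand, 153 had no count in any library (99.4%). Of 415 that lie within an intron on the opposite strand, 40.5% had none, against 31.7% of 12076 that overlap no other gene. This is the pattern of counting over whole gene spans, introns included, by strand, with reads in a span shared by 2 genes of the same strand given to neither. Sox2 (chromosome 3, 34650405 to 34652461, mm10, a gene without introns) lies wholly in an intron of Sox2ot on the same strand. It was at 0 counts in all 12 libraries, so the level of this radial glia transcription factor was not measured. The host transcript Sox2ot averaged 811 ± 186 CPM in Neurod6 dKO, 821 ± 189 CPM in Emx1 dKO and 739 ± 114 CPM in control (SD, n = 4 each). Same-strand neighbours at 0 counts also cover 61 bases of Notch1, 5121 and 3063 bases of Notch2 and 2968 bases of Slc1a3, and by the same pattern reads there were not counted. Pax6os1, an antisense gene over 1431 bases of Pax6, had 1 to 19 counts.

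Levels between genes can be compared only per length, here as CPM per kb of the whole gene. On this scale Fabp7 was highest, at means of 14.8 CPM per kb in Neurod6 dKO, 17.5 in Emx1 dKO and 13.9 in control. Vim averaged 8.74 CPM per kb in Neurod6 dKO, 8.22 in Emx1 dKO and 5.75 in control. Per kb of whole gene the Notch receptors were the lowest of the 7 genes tested, except that Pax6 lay below Notch1 in Emx1 dKO. Notch2 averaged 0.591 CPM per kb in Neurod6 dKO, 0.572 in Emx1 dKO and 0.322 in control, and Notch1 averaged 0.723 in Neurod6 dKO, 0.835 in Emx1 dKO and 0.531 in control. Their spans, 136835 bases for Notch2 and 58761 for Notch1, are mostly intron, so this low rank depends on the length used. Exons cover 10782 bases of Notch2 and 11694 of Pax6, and control means were 44.1 and 16.1 CPM. Per kb of exon, Notch2 would therefore lie above Pax6 in control.

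Notch2 rose in both knockouts. This receptor (chromosome 3, 98013527 to 98150361) was at 61.2, 101, 84.1 and 77.2 CPM in Neurod6 dKO 1 to 4 and at 86.2, 84.7, 71.9 and 70.5 CPM in Emx1 dKO 1 to 4. In control 1 to 4 it was at 43.4, 50.6, 43.2 and 39.3 CPM. Every knockout library lay above every control library. Means were 80.8 ± 16.4 CPM in Neurod6 dKO, 78.3 ± 8.28 in Emx1 dKO and 44.1 ± 4.72 in control (SD, n = 4 each). The log2 fold change against control was 0.88 in Neurod6 dKO (SE 0.14, adjusted p = 9.56e-06) and 0.83 in Emx1 dKO (SE 0.13, adjusted p = 6.07e-06). Both calls held whichever library was left out, without control 1 and control 3, and with every library thinned to 722080 counts.

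Notch1, the other main receptor of radial glia (chromosome 2, 26457903 to 26516663), was at 34.0, 51.3, 37.2 and 47.5 CPM in Neurod6 dKO 1 to 4. It was at 69.2, 45.8, 43.8 and 37.5 CPM in Emx1 dKO 1 to 4 and at 35.3, 30.9, 25.5 and 33.1 CPM in control 1 to 4. The lowest Neurod6 dKO library lay below the highest control, while the Emx1 dKO libraries lay above all controls and Emx1 dKO 1 was the highest of the 12. Notch1 rose in Emx1 dKO (log2 fold change 0.63, SE 0.16, adjusted p = 0.00514). In Neurod6 dKO the log2 fold change was 0.50 (SE 0.18) and did not pass (adjusted p = 0.0669). The Emx1 dKO call was lost without control 1 and control 3 (log2 fold change 0.59, adjusted p = 0.067) and with thinned libraries (0.71, adjusted p = 0.129). In Neurod6 dKO the gene passed without Neurod6 dKO 1 or without Emx1 dKO 1, with adjusted p down to 0.0372.

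Hes1 and Hes5, the repressors that Notch activity induces, were too sparse to compare. Hes1 (chromosome 16, 30064384 to 30067796) had 5, 0, 2 and 11 counts in Neurod6 dKO 1 to 4, 3, 7, 4 and 8 in Emx1 dKO and 3, 5, 9 and 2 in control. Hes5 (chromosome 4, 154960923 to 154962371) had 3, 3, 1 and 9 counts in Neurod6 dKO, 2, 6, 1 and 4 in Emx1 dKO and 4, 3, 2 and 4 in control. The groups overlapped for both genes. In a fit without the filter, the log2 fold changes were 0.48 (SE 0.59, adjusted p = 0.744) for Hes1 and 0.85 (SE 0.67, adjusted p = 0.61) for Hes5 in Neurod6 dKO. In Emx1 dKO they were 0.30 (SE 0.55, adjusted p = 0.814) and 0.09 (SE 0.67, adjusted p = 1). The SE of each is too large to show changes of the size seen for Notch2.

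**Figure D1:**
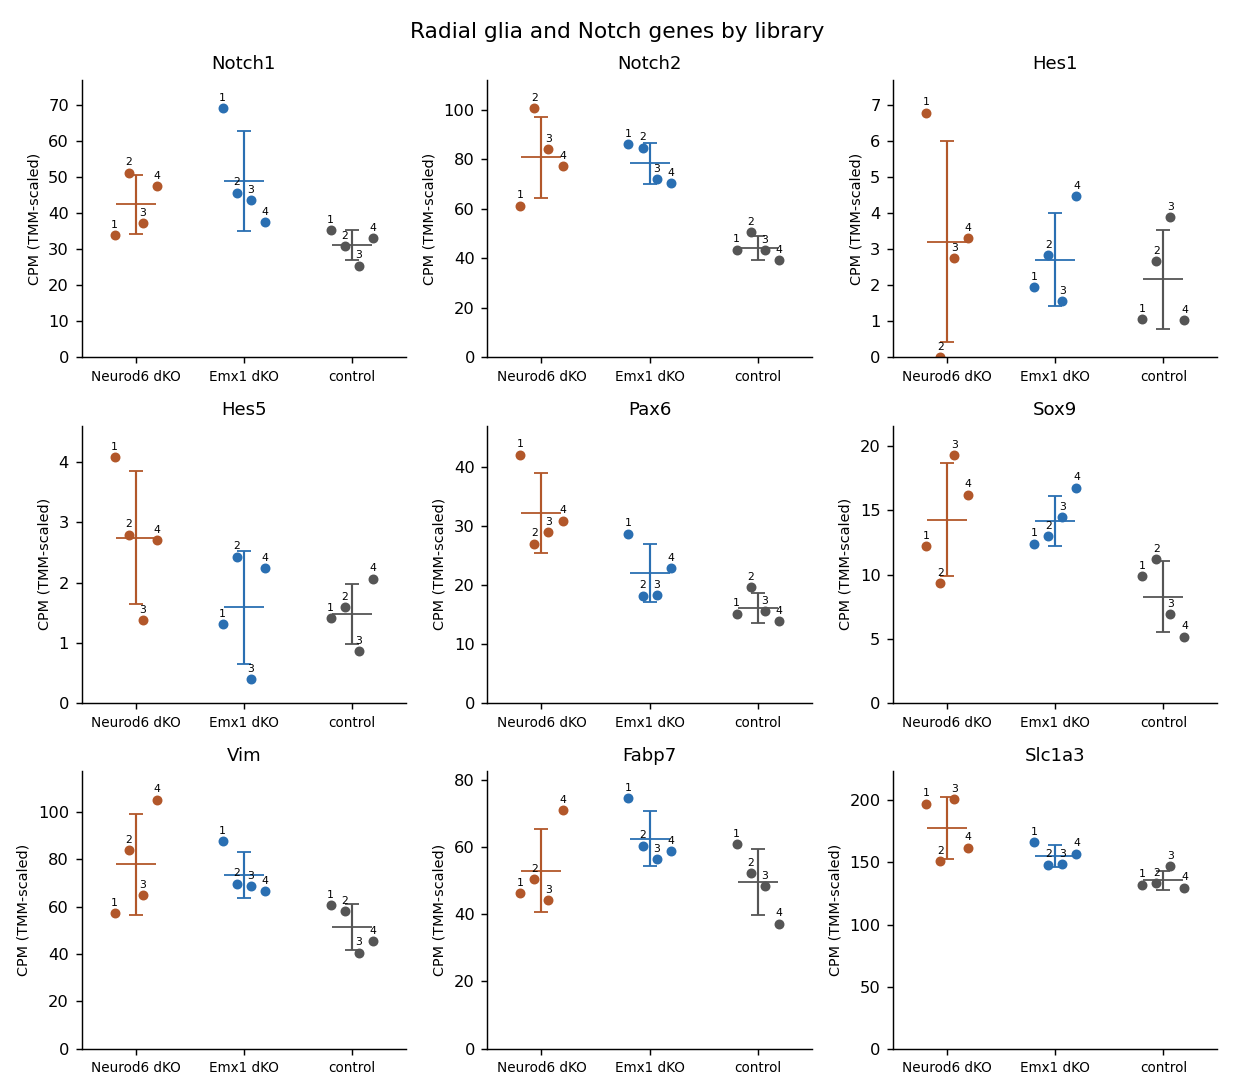
Level of each of the 9 genes with counts, in TMM-scaled CPM on linear axes from 0, with 1 point per library (numbered by replicate) and the group mean with its SD (n = 4). All 8 knockout libraries lie above the controls for Notch2, while the groups overlap for Hes1, Hes5 and Fabp7.

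Pax6, a transcription factor that specifies cortical radial glia, rose in Neurod6 dKO. The gene (chromosome 2, 105668900 to 105697364) was at 42.2, 27.0, 28.9 and 30.9 CPM in Neurod6 dKO 1 to 4, at 28.7, 18.2, 18.4 and 22.9 CPM in Emx1 dKO 1 to 4, and at 15.2, 19.7, 15.5 and 13.9 CPM in control 1 to 4. Every Neurod6 dKO library was above every control, and Emx1 dKO lay between with overlap on both sides. Means were 32.3 ± 6.79 CPM in Neurod6 dKO, 22.1 ± 4.95 CPM in Emx1 dKO and 16.1 ± 2.50 CPM in control. The log2 fold change was 0.98 in Neurod6 dKO (SE 0.20, adjusted p = 0.000629), a call that held in all 12 leave-outs, the fits without 1 library each. With thinned libraries it was 0.55 and no longer passed (adjusted p = 0.592). In Emx1 dKO Pax6 had a log2 fold change of 0.43 (SE 0.20) and did not pass (adjusted p = 0.131).

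Sox9, a transcription factor of radial glia and astrocytes (chromosome 11, 112782224 to 112787760), was at 12.2, 9.33, 19.3 and 16.2 CPM in Neurod6 dKO 1 to 4. It was at 12.4, 12.97, 14.5 and 16.8 CPM in Emx1 dKO 1 to 4 and at 9.89, 11.2, 6.91 and 5.17 CPM in control 1 to 4. Emx1 dKO did not overlap control, whereas 1 Neurod6 dKO library lay below 2 controls. In Emx1 dKO Sox9 rose by 0.76 on the log2 scale (SE 0.26, adjusted p = 0.0327). The call ended without any of Emx1 dKO 2, 3 and 4 or control 3 and 4 (adjusted p up to 0.127). It was also lost without control 1 and control 3 together (log2 fold change 0.79, adjusted p = 0.153), with the replicate number as a block (adjusted p = 0.0533) and with DESeq2 (adjusted p = 0.101). In Neurod6 dKO the log2 fold change was 0.80 (SE 0.28) and the adjusted p was 0.0571, a value that ranged from 0.0241 to 0.274 over the leave-outs. It passed without Neurod6 dKO 2 and without control 2.

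Vim, an intermediate filament protein of the radial fibre (chromosome 2, 13573927 to 13582826), was at 57.1, 83.9, 64.8 and 105 CPM in Neurod6 dKO 1 to 4. It was at 87.5, 69.7, 68.8 and 66.6 CPM in Emx1 dKO 1 to 4 and at 60.7, 58.0, 40.6 and 45.5 CPM in control 1 to 4. Neurod6 dKO 1 lay within the control range and Emx1 dKO did not overlap it. The log2 fold change of Vim, called in each knockout, was 0.69 in Neurod6 dKO (SE 0.16, adjusted p = 0.00318) and 0.50 in Emx1 dKO (SE 0.15, adjusted p = 0.0204). Without Neurod6 dKO 4, the deepest library, the log2 fold change in Neurod6 dKO was 0.44 and not called (adjusted p = 0.075). The Emx1 dKO call was lost without Emx1 dKO 1, control 3 or control 4 (adjusted p up to 0.0834), without control 1 and control 3 together (adjusted p = 0.0982) and with DESeq2 (adjusted p = 0.0617).

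Slc1a3, which encodes the glutamate transporter GLAST (chromosome 15, 8634124 to 8710764), was at 197, 151, 201 and 162 CPM in Neurod6 dKO 1 to 4, at 167, 148, 149 and 157 CPM in Emx1 dKO 1 to 4 and at 132, 134, 147 and 130 CPM in control 1 to 4. All 8 knockout libraries were above all controls, by a small margin. In Neurod6 dKO Slc1a3 rose by 0.37 on the log2 scale (SE 0.10, adjusted p = 0.0134), and the call ended without Neurod6 dKO 3 or control 4 (adjusted p up to 0.0705) and without control 1 and control 3 (log2 fold change 0.41, adjusted p = 0.06). In Emx1 dKO Slc1a3 was at a log2 fold change of 0.19 (SE 0.10, adjusted p = 0.178).

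Fabp7, the brain lipid-binding protein of radial glia (chromosome 10, 57784881 to 57788450), did not pass in either knockout. It was at 46.3, 50.4, 44.1 and 70.9 CPM in Neurod6 dKO 1 to 4, at 74.5, 60.4, 56.3 and 58.7 CPM in Emx1 dKO 1 to 4 and at 60.7, 52.2, 48.4 and 37.2 CPM in control 1 to 4. The groups overlapped. The log2 fold change was 0.18 in Neurod6 dKO (95% interval -0.14 to 0.50, adjusted p = 0.556) and 0.31 in Emx1 dKO (0.01 to 0.60, adjusted p = 0.142). The upper bounds leave room for a rise in either knockout.

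Counted together, 4 of the 7 genes tested rose in Neurod6 dKO (Pax6, Notch2, Vim and Slc1a3) and none fell. Over all 11076 genes tested, 11.3% were called in that comparison, 5.04% of all higher and 6.29% lower. The number without overlap above control was 3 (Pax6, Notch2 and Slc1a3), where 5.84% of all genes showed such a rise. In Emx1 dKO 4 of 7 rose (Notch1, Notch2, Sox9 and Vim) and none fell, against 20.2% of all genes called, 10.1% higher and 10.1% lower. Notch1, Notch2, Sox9, Vim and Slc1a3 did not overlap control there, where 12.5% of all genes lay wholly above. Median log2 fold changes of the 7 genes were 0.69 in Neurod6 dKO and 0.50 in Emx1 dKO, and the median of all genes was 0.01 in either comparison. All 7 had a positive log2 fold change in each knockout. Without control 1 and control 3 the counts were 3 in Neurod6 dKO and 1 in Emx1 dKO, and with every library thinned to 722080 counts 1 in each, Notch2. In Emx1 dKO the count was 2 without control 3 or without control 4, and 2 with DESeq2 (Notch1 and Notch2). The comparisons share the same 4 control libraries, so the counts are not independent of each other.

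**Figure D2:**
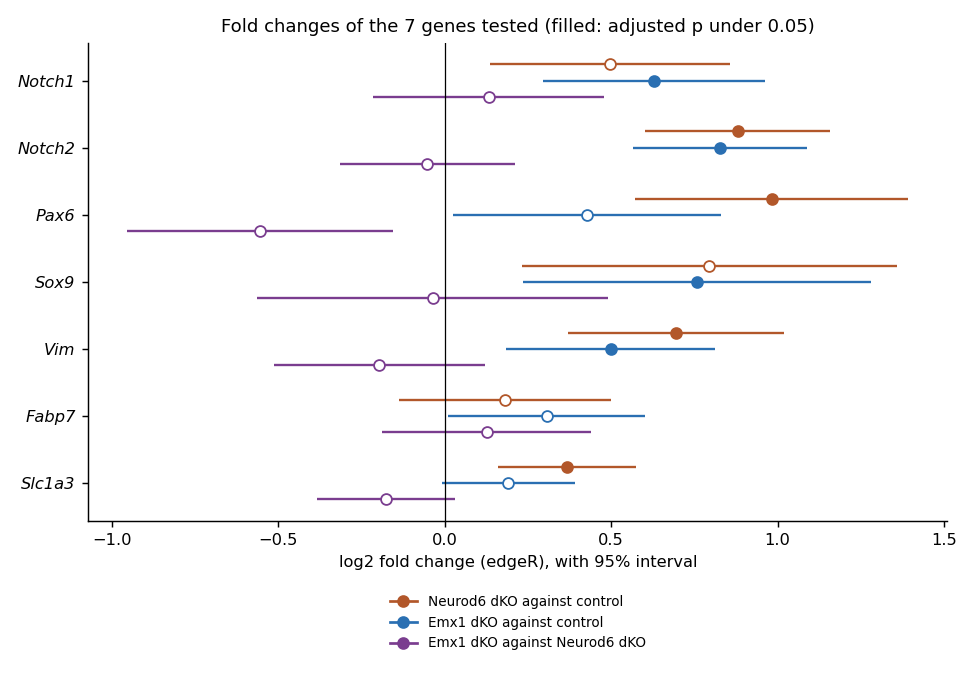
Log2 fold change of the 7 genes tested, as points with 95% intervals, for each knockout against control and for Emx1 dKO against Neurod6 dKO, and filled points passed at an adjusted p under 0.05. Notch2 sits at 0.88 and 0.83 against control, and no gene is filled between the knockouts.

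The knockouts were compared directly to ask whether the level of these genes depends on the driver. None of the 7 genes passed with edgeR or DESeq2, against 6.84% of all genes with edgeR, and 1 of the 7, Pax6, had an unadjusted p under 0.05. For Pax6 the log2 fold change of Emx1 dKO against Neurod6 dKO was -0.56 (95% interval -0.95 to -0.16, adjusted p = 0.0791). It was called when Emx1 dKO 1 was left out (log2 fold change -0.69, adjusted p = 0.0426), and over the leave-outs its adjusted p ranged from 0.0426 to 0.213. For Notch2 the difference was -0.05, with an interval of -0.32 to 0.21. For Vim it was -0.20 (-0.51 to 0.12), and for Slc1a3 it was -0.18 (-0.38 to 0.03). For Notch1 it was 0.13 (-0.22 to 0.48), for Fabp7 0.13 (-0.19 to 0.44) and for Sox9 -0.04 (-0.56 to 0.49). Driver and time of deletion come together in this comparison. Y-linked transcripts had 1035 and 274 counts in Emx1 dKO 3 and 4 and at most 3 in any other library, so sex also differs within Emx1 dKO. With Y-linked counts as a term for sex, 3 of the 7 genes rose in Emx1 dKO and Sox9 did not pass, in a fit where Emx1 dKO 1 and 2 alone carry the Emx1 dKO effect.

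The other genes of the Notch pathway moved in both directions. Of 43 genes on the list 35 were tested. In Neurod6 dKO 3 rose and 3 fell, where 11.3% of all genes were called, and the list's median log2 fold change was -0.03, against 0.01 for all genes. In Emx1 dKO 5 rose and 5 fell, where 20.2% of all genes were called, with a median of 0.05. With library totals 7 rose and 2 fell in Emx1 dKO, and without the filter 2 rose and 5 fell. The number called in Emx1 dKO was 5 without control 1 and control 3, 6 without either of these alone, 6 with the term for sex and 2 with thinned libraries. In Neurod6 dKO 3 passed with thinned libraries.

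None of the tested genes grouped on this list as ligands, receptors or targets passed in either knockout. All of them are given here although the rule for naming genes does not cover them. Dll1, a Delta ligand on new neurons and intermediate progenitors, was at a log2 fold change of 0.16 in Neurod6 dKO (SE 0.25, adjusted p = 0.783) and 0.15 in Emx1 dKO (SE 0.23, adjusted p = 0.704). Jag2 was at -0.51 in Neurod6 dKO (SE 0.18, adjusted p = 0.0555) and at 0.00 in Emx1 dKO (SE 0.15, adjusted p = 0.991). Jag1 and the receptor Notch3 did not pass either (adjusted p = 0.351 to 0.633). Hey1 and Hes6, grouped as targets on the list, did not pass (edgeR adjusted p = 0.234 to 0.979). Hey1 was at a log2 fold change of 0.31 in Neurod6 dKO and 0.65 in Emx1 dKO. Hes6 was at 0.02 in Neurod6 dKO and 0.40 in Emx1 dKO, and whether Notch activity controls Hes6 was not tested.

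In the nuclear complex Rbpj rose and Maml2 fell. Rbpj, the DNA-binding partner of the cleaved receptors, was at 114, 112, 143 and 157 CPM in Neurod6 dKO 1 to 4, at 108, 133, 126 and 143 CPM in Emx1 dKO and at 94.6, 85.7, 90.3 and 79.0 CPM in control. All knockout libraries lay above all controls. Its log2 fold change was 0.61 in Neurod6 dKO (SE 0.12, adjusted p = 0.000224) and 0.55 in Emx1 dKO (SE 0.11, adjusted p = 0.000349), and both calls held in all 12 leave-outs, though the Emx1 dKO call was lost with thinned libraries. Maml2, a Mastermind coactivator, was at 345 ± 71.5 CPM in Neurod6 dKO, 279 ± 13.9 CPM in Emx1 dKO and 520 ± 55.7 CPM in control. Every knockout library lay below every control. Maml2 fell by 0.57 on the log2 scale in Neurod6 dKO (edgeR adjusted p = 0.000292) and by 0.90 in Emx1 dKO (edgeR adjusted p = 8.02e-08), in every leave-out. In Emx1 dKO the coactivator gene Maml1 (0.45, adjusted p = 0.0269) rose, a call lost without Emx1 dKO 1 or 4 or control 2, 3 or 4 (adjusted p up to 0.088).

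Among genes that turn Notch proteins over, Dtx4 fell furthest. This Deltex E3 ubiquitin ligase gene was at 70.7, 42.0, 57.9 and 65.2 CPM in Neurod6 dKO 1 to 4, at 48.3, 53.5, 60.6 and 57.0 CPM in Emx1 dKO and at 147, 149, 128 and 135 CPM in control. Every knockout library was well below every control. The log2 fold change was -1.23 in Neurod6 dKO (SE 0.13, adjusted p = 1.85e-09) and -1.34 in Emx1 dKO (SE 0.12, adjusted p = 2.49e-11), called in all leave-outs. Fbxw7, whose product marks the Notch intracellular domain for degradation, fell in Neurod6 dKO (-0.41, adjusted p = 0.0112) and in Emx1 dKO (-0.37, adjusted p = 0.0108). The first of these calls was lost without Neurod6 dKO 1 and the second without Emx1 dKO 1 or control 1, and both were lost without control 1 and control 3 (adjusted p = 0.18 and 0.195). Itch, an E3 ligase gene, rose in Neurod6 dKO (0.36, adjusted p = 0.0401) and Numb, a Notch inhibitor, in Emx1 dKO (0.36, adjusted p = 0.046), and these calls were lost in 9 and 8 of 12 leave-outs. The Itch call held without Neurod6 dKO 2, Emx1 dKO 1 or control 1, and the Numb call without Neurod6 dKO 1, 2 or 4 or Emx1 dKO 4.

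Of the genes for sugar transfer to Notch and for ligand endocytosis, Mfng rose in Neurod6 dKO and Neurl1a in Emx1 dKO. Mfng, a Fringe glycosyltransferase, averaged 9.15 ± 4.25 CPM in Neurod6 dKO, 6.57 ± 1.61 CPM in Emx1 dKO and 3.11 ± 1.83 CPM in control. The log2 fold change was 1.46 in Neurod6 dKO (SE 0.40, adjusted p = 0.0132) and 0.97 in Emx1 dKO (SE 0.40, adjusted p = 0.0818), where the groups overlapped. The Neurod6 dKO call ended without Neurod6 dKO 4 or control 4 (adjusted p up to 0.0652), and without control 1 and control 3 its log2 fold change was 2.48 (adjusted p = 0.00535). Neurl1a, a Neuralized E3 ligase gene, was at 56.2, 33.2, 32.8 and 44.2 CPM in Emx1 dKO 1 to 4, at 19.0, 35.4, 16.5 and 20.7 CPM in Neurod6 dKO and at 12.0, 14.9, 20.7 and 16.5 CPM in control. In Emx1 dKO it rose by 1.35 on the log2 scale (SE 0.21, adjusted p = 6.38e-06), in every leave-out but not with thinned libraries. It was the gene of the list that differed between the knockouts (0.82, SE 0.22, adjusted p = 0.0178), although not without Neurod6 dKO 3 or 4 or Emx1 dKO 1 or 4 (adjusted p up to 0.128), with thinned libraries or with the term for sex. The E3 ligase genes Mib2 (-0.51, adjusted p = 0.0178) and Neurl1b (-0.49, adjusted p = 0.029) fell in Emx1 dKO, and both calls were lost without control 1 and control 3 (adjusted p = 0.0757 and 0.13). The Mib2 call also ended without Emx1 dKO 2 or 4 or control 2, and the Neurl1b call without Emx1 dKO 2 or 3 or control 1, 3 or 4.

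**Figure D3:**
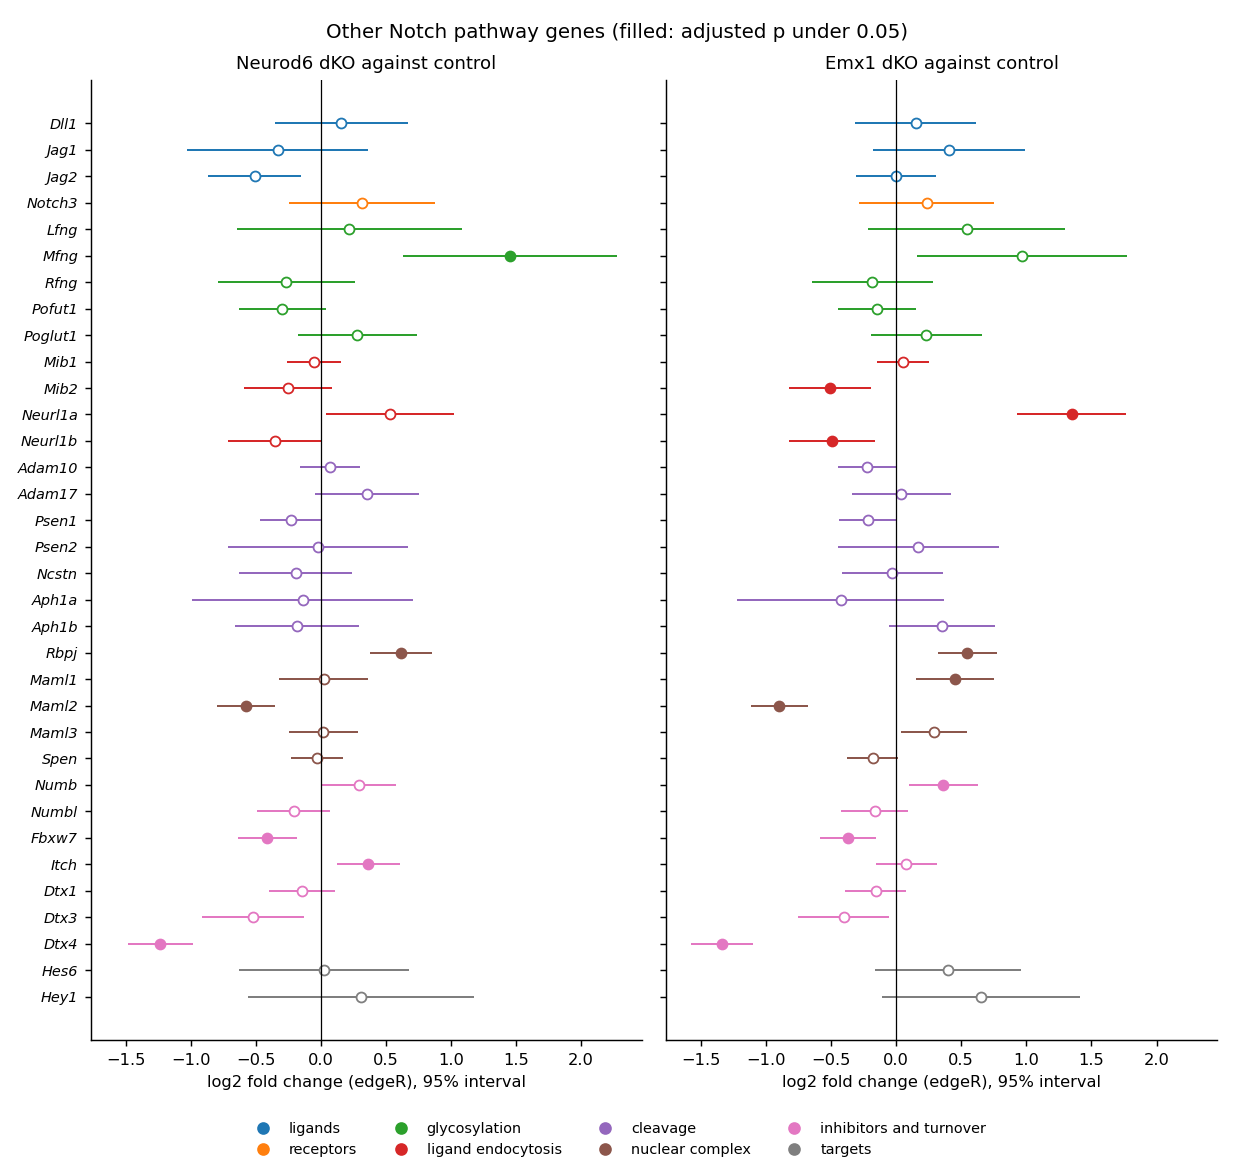
Log2 fold change with 95% interval of the other Notch pathway genes tested, 1 of the 35 not being shown. The left panel is Neurod6 dKO against control and the right panel Emx1 dKO against control. Genes are grouped from those listed as ligands at the top to those listed as targets at the bottom. Filled points passed at an adjusted p under 0.05, with Rbpj above 0 and Maml2, Fbxw7 and Dtx4 below 0 in both panels.

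Of 26 further radial glia genes, 21 were tested. In Neurod6 dKO 2 rose and none fell, where 11.3% of all genes were called, 5.04% higher and 6.29% lower. The median log2 fold change of the list was 0.29. In Emx1 dKO 5 rose and none fell, where 20.2% of all genes were called, 10.1% higher and 10.1% lower. The median there was 0.14. With library totals 7 rose in Neurod6 dKO, and in Emx1 dKO 2 rose with DESeq2, 2 with thinned libraries and 1 with the term for sex. Without Neurod6 dKO 1 the count in Neurod6 dKO was 5, and in Emx1 dKO it was 3 without Emx1 dKO 1, 2 or 3 or control 2 or 4, and 2 without Emx1 dKO 4 or control 1. Prom1, a membrane glycoprotein gene of neural stem cells, was at 27.2, 31.7, 34.5 and 39.1 CPM in Neurod6 dKO 1 to 4, at 26.8, 32.8, 33.6 and 30.2 CPM in Emx1 dKO and at 19.8, 16.5, 19.0 and 14.98 CPM in control. All knockout libraries lay above the controls. Its log2 fold change was 0.95 in Neurod6 dKO (SE 0.18, adjusted p = 0.000186) and 0.81 in Emx1 dKO (SE 0.17, adjusted p = 0.000473), called in every leave-out.

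Ptprz1, a receptor phosphatase gene, rose in Neurod6 dKO (0.42, SE 0.10, adjusted p = 0.00317), with 1149 ± 222 CPM against 860.2 ± 36.7 CPM in control. In Emx1 dKO the other risen genes were Id4 (0.79, adjusted p = 0.0282), Emx2 (0.78, adjusted p = 0.0467) and Phgdh, of serine synthesis (0.65, adjusted p = 0.0214). Psat1 of the same synthesis pathway rose too (0.62, adjusted p = 0.0115), named after its values were seen. The Id4 call was lost without Emx1 dKO 1, 2 or 4 or control 1 or 4, and the Emx2 call without Emx1 dKO 1, 2 or 4 or any control library. The Phgdh call was lost without Emx1 dKO 3 or 4 or control 1 or 2, and the Psat1 call without Emx1 dKO 3. Without control 1 and control 3 the only one of these 5 still called in Emx1 dKO was Prom1. Between the knockouts Lhx2, a LIM homeobox gene of cortical progenitors, averaged 62.1 ± 4.65 CPM in Emx1 dKO and 88.8 ± 9.91 CPM in Neurod6 dKO. It was lower by a log2 fold change of -0.55 (SE 0.12, adjusted p = 0.00374), a call lost with thinned libraries and with the term for sex. Ptprz1 was also lower (-0.35, adjusted p = 0.0291), a call lost without Neurod6 dKO 3 or 4 or Emx1 dKO 1, 3 or 4 (adjusted p up to 0.213) and with the replicate block. Nes, a filament gene named after its values were seen, did not pass in Neurod6 dKO (0.35, adjusted p = 0.146) or Emx1 dKO (0.02, adjusted p = 0.947).

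Markers of other cells moved with these genes. The summed level of the 10 genes was 461 to 516 CPM in Neurod6 dKO, 424 to 528 CPM in Emx1 dKO and 307 to 361 CPM in control. Intermediate progenitor markers, of which 9 of 10 had a count and Neurog1 was at 0, summed to 112 to 131 CPM in Neurod6 dKO, 85.0 to 108 CPM in Emx1 dKO and 47.7 to 71.8 CPM in control. Of 7 tested, 4 rose in Neurod6 dKO (5.04% of all genes) and 3 in Emx1 dKO (10.1% of all genes), and the list shares Mfng with the Notch list. Insm1, called in both, averaged 46.6 CPM in Neurod6 dKO, 32.0 CPM in Emx1 dKO and 14.7 CPM in control. Eomes passed in neither, at 13.3 CPM in Neurod6 dKO, 7.39 CPM in Emx1 dKO and 8.98 CPM in control. Both genes were named after their values were seen. Astrocyte markers (12 of 12 with a count) summed to 514 to 663 CPM in Neurod6 dKO, 499 to 613 CPM in Emx1 dKO and 447 to 507 CPM in control. Excitatory neuron markers (9 of 9) summed to 1660 to 2357 CPM in Neurod6 dKO, 1213 to 1583 CPM in Emx1 dKO and 2560 to 2941 CPM in control. Markers of dividing cells (14 of 14) overlapped, at 146 to 284 CPM in Neurod6 dKO, 157 to 195 CPM in Emx1 dKO and 140 to 193 CPM in control, and the highest value was that of Neurod6 dKO 4. The part of these cells in the results above was not tested.

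Endothelial and mural markers (10 of 10) were, as a sum, lower in every Neurod6 dKO library than in any control, and overlapped control in Emx1 dKO. They summed to 83.0 to 110 CPM in Neurod6 dKO, 84.0 to 120 CPM in Emx1 dKO and 118 to 128 CPM in control. Markers of meninges and fibroblasts (8 of 8) summed to 106 CPM in Emx1 dKO 1 and 40.5 CPM in Emx1 dKO 2, against 10.1 to 23.4 CPM in the other 10 libraries. Emx1 dKO 1 was also the highest library in Notch1 and Fabp7. Without it Notch1 in Emx1 dKO was at a log2 fold change of 0.45 and still called (adjusted p = 0.0474), and Notch2 was called as well. The call of Vim was lost without it (0.41, adjusted p = 0.0676). Choroid plexus and ependymal markers were near the floor in all groups, at no more than 3.92 CPM summed, and Kcnj13, Ccdc153 and Tmem212 were at 0. Interneuron and ganglionic eminence markers (9 of 10 with a count) overlapped, at 1550 to 1924 CPM in Neurod6 dKO, 1331 to 1671 CPM in Emx1 dKO and 1475 to 1751 CPM in control. Microglia and macrophage markers (8 of 8) were at 17.9 to 27.2 CPM in Neurod6 dKO, 21.1 to 47.0 CPM in Emx1 dKO and 11.7 to 17.6 CPM in control. Oligodendrocyte lineage markers (7 of 7) were at 182 to 389 CPM in Neurod6 dKO, 413 to 535 CPM in Emx1 dKO and 269 to 344 CPM in control. Most of this sum is Lhfpl3, which rose in Emx1 dKO, at a mean of 426 CPM against 242 CPM in control. The other members had lower means in Emx1 dKO than in control, and Pdgfra (-0.71, adjusted p = 0.0034) and Gpr17 (-1.64, adjusted p = 0.0193) fell. These genes were named after their values were seen. Red blood cell markers (5 of 5) were at 31.7 to 59.9 CPM in Neurod6 dKO, 25.8 to 49.6 CPM in Emx1 dKO and 36.4 to 56.4 CPM in control.

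**Figure D4:**
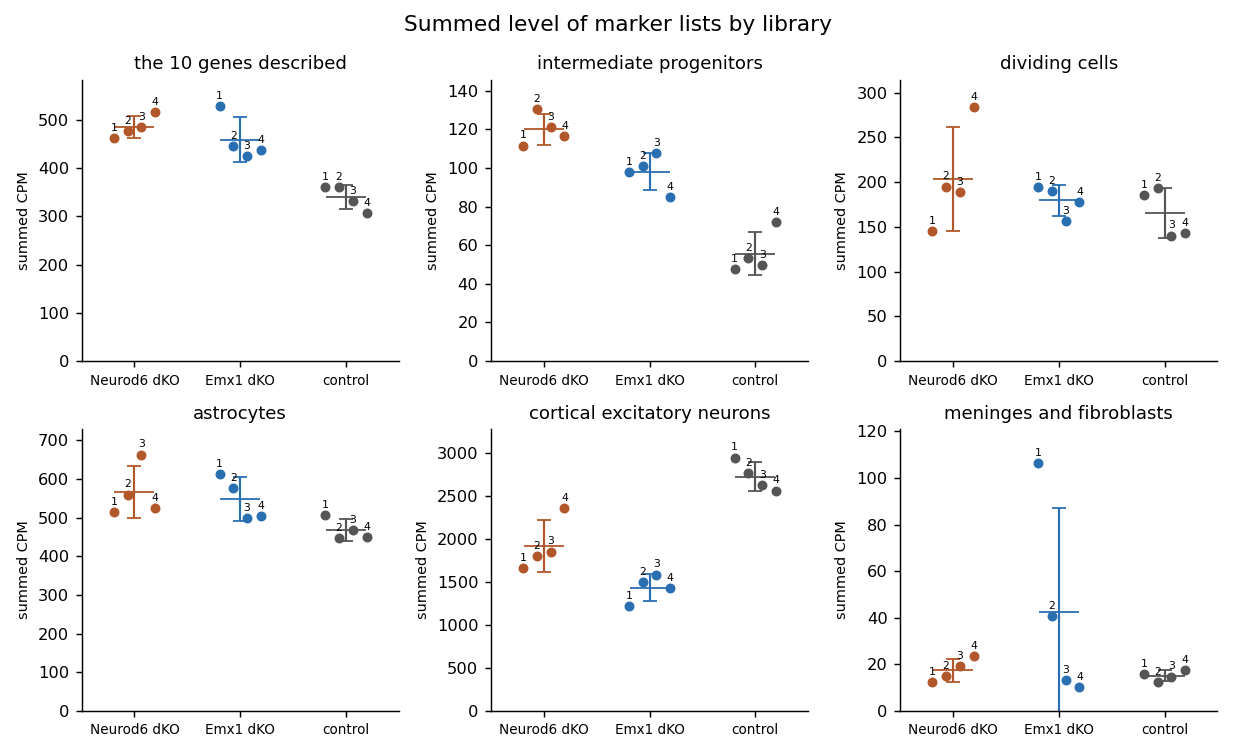
Summed TMM-scaled CPM of the 10 genes described and of 5 marker lists, with 1 point per library (numbered by replicate) and the group mean with its SD (n = 4), the lower end of 1 error bar being hidden below 0. The sums of the 10 genes and of the intermediate progenitor markers are higher in the knockouts, and the sum of excitatory neuron markers is lower. Emx1 dKO 1 stands at 106 CPM for meninges and fibroblasts.

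The genes most like the list in pattern were found by correlating 9342 other protein-coding genes, over the 12 libraries, with the mean scaled log2 level of the 7 tested genes. The highest Pearson r was that of St18, a zinc finger transcription factor gene (0.956), followed by Cflar, an inhibitor of caspase-8 (0.948), and St5 (0.947). Lmcd1 (0.937) and Tead1, a transcription factor of Hippo signalling (0.935), came next. Cflar averaged 20.5 ± 2.52 CPM in Neurod6 dKO, 19.3 ± 3.02 CPM in Emx1 dKO and 11.8 ± 2.23 CPM in control. Tead1 averaged 231.5 ± 47.5 CPM in Neurod6 dKO, 215.5 ± 26.9 CPM in Emx1 dKO and 142.4 ± 14.2 CPM in control. The libraries share their groups, so r here describes likeness over these 12 points only.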

How the data were processed

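RNA libraries depleted of ribosomal RNA and made by ClickSeq, in which adapters are joined by click chemistry, were analysed from 12 cortex samples in 3 groups of 4 set by the titles. Per-gene read counts, not normalized, were deposited, and the submitters' processing notes name STAR, UMI-tools, HTSeq and mm10, without the annotation or the counting options. Besides 51912 genes, each table had 5 lines that name no gene, which stayed out of library sizes and tests, and genes held 85.2% to 88.9% of the reads listed. Identifiers were matched without their version to GENCODE M21 (mm10), 51633 of them (99.5%). Promoter sequences are from RefSeq.

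Counts were scaled with TMM factors and filtered with filterByExpr (minimum count 10), which kept 11076 genes. They were tested with the robust quasi-likelihood test of edgeR in 1 fit of all libraries, with 9 residual degrees of freedom and Benjamini-Hochberg adjustment over all genes, at a threshold of 0.05. Versions were edgeR 4.0.16, limma 3.58.1 and DESeq2 1.42.0 in R 4.3.3, and pandas 2.3.3 and matplotlib 3.10.9 in Python 3.11.15. The genes and lists were chosen with earlier results of these data known. All 10 genes were named, and up to 4 changed genes per direction of each other list, and 1 gene of the Notch list is not reported here. Those most alike needed an average log2 CPM of at least 3. As separate animals are not stated, a p-value here measures the spread between libraries, which may be technical. Pairs within a group differed by more than sampling noise (ratio of chi-square to its degrees of freedom 1.62 to 5.99). Alternatives covered scaling, filter, tool, depth (1 draw thinned to 722080 counts), sex (Y-linked counts as a term), replicate block and left-out libraries.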

Additional observations from a re-analysis of the deposited data

Results flagged for a closer look

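In Emx1 dKO, Vim was at 87.5 CPM in replicate 1, far above the other 3 libraries of that group at 66.6 to 69.7 CPM. The gap exceeded Dixon's 95% critical value for 4 samples, which chance exceeds in about 1 of 20 groups. Each gene of the list was screened in each group, and this was the only gap flagged. With so many groups screened, a gap of this size can arise by chance. The same library held the highest summed level of meningeal and fibroblast markers (106 CPM).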

How the results depend on the processing

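The number of the 7 tested genes called was 4 in Neurod6 dKO, 4 in Emx1 dKO and 0 between the knockouts. Leaving out 1 library gave 3 to 5 in Neurod6 dKO, 2 to 4 in Emx1 dKO and 0 to 1 between the knockouts. In Neurod6 dKO the count moved to 1 with thinned libraries. In Emx1 dKO it moved to 7 with library totals, 1 without control 1 and control 3, 1 with thinned libraries and 2 with DESeq2. With library totals the median of all genes shifted by 0.06 in Neurod6 dKO and 0.13 in Emx1 dKO (log2), and calls that were higher made up 57.8% of all in Neurod6 dKO (44.5% with TMM) and 73.9% in Emx1 dKO (50.0% with TMM). The cause of the other changes was not tested. With the replicate block the counts were 4 in Neurod6 dKO, 3 in Emx1 dKO and 0 between the knockouts. Same-numbered libraries did not deviate together (r -0.124 to 0.013), so the numbers give no pairing.

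Of 441 single-gene values under alternatives, 13 changed sign, none of them called. Fabp7 in Neurod6 dKO ranged from -0.0884 to 0.295 over the leave-outs. Between the knockouts the leave-outs gave -0.179 to 0.106 for Sox9, -0.133 to 0.0587 for Notch2, -0.0512 to 0.231 for Notch1 and -0.301 to 0.0494 for Vim. With library totals Sox9 was at 0.0415 and Notch2 at 0.0163. With thinned libraries Sox9 was at 0.246 and Notch2 at 0.0133, and with a sex term Notch2 was at 0.0746. Hes1 and Hes5, at 0 to 11 counts a library, were below the filter.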
